A study of Mus musculus with 24 samples.

Results

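The mitochondrial carriers of the Slc25 gene family were examined in mouse heart RNA. Every row of the deposited count table whose Ensembl identifier maps to a symbol made of Slc25a and a number was taken, which gave 47 of 43432 genes. They were put into 15 groups by known substrate. The 24 libraries come from hearts of C57BL/6 mice and form 6 groups of 4. The running cohort holds sedentary mice and mice that had run on a wheel for 8 weeks. Another holds mice at 2 weeks and a last one mice at 8 weeks after TAC, transverse aortic constriction, in which a ligature around the aorta raises the pressure that the left ventricle pumps against, and both have their own sham-operated mice. The labels tie the 2-week TAC hearts and their shams to left ventricular hypertrophy (LVH) and the 8-week hearts and their shams to heart failure (HF). They give no time after surgery for the shams, and no sex or age. The comparisons address which transcripts differ in exercise-driven and pressure-driven growth of the heart.

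Carriers of this family sit in the inner mitochondrial membrane, with a few in the outer membrane or in peroxisomes, and exchange nucleotides, phosphate, organic acids, amino acids, acylcarnitines and cofactors between cytosol and matrix. In the heart, which makes nearly all of its ATP in mitochondria, the ADP/ATP carrier exports ATP and imports ADP, and the phosphate carrier delivers the other substrate of ATP synthase. The carnitine carrier brings fatty acids in as acylcarnitines, and the aspartate-glutamate and oxoglutarate carriers form the membrane part of the malate-aspartate shuttle, which moves reducing equivalents into the matrix. The proteins are encoded in the nucleus and imported by the TOM, small TIM and TIM22 complexes.

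The total estimated count per library ranged from 16802939 to 39512101 (median 22845050), of which 50.7% to 73.6% came from mitochondrially encoded genes. All 8 cardiomyocyte markers checked (among them Myh6, Tnnt2 and Ryr2) had counts in every group. Of the 47 carriers, 39 passed the filter on low counts and were tested in each comparison. The other 8 had from 0 to 128 counts summed over all 24 libraries. They were Slc25a2 (an ornithine carrier, 128 counts), Slc25a18 (a glutamate carrier, 99), Slc25a31 (an ADP/ATP carrier of the testis, 74), Slc25a43 (54), Slc25a21 (the oxodicarboxylate carrier, 12), Slc25a41 (2), Slc25a54 (2) and Slc25a48 (a choline carrier, 0). A count of 0 in a library allows up to 3 counts there by counting error alone. Slc25a2 and Slc25a18 had a count in 23 of 24 libraries, Slc25a43 in 21 and Slc25a31 in 19, and none of them had more than 12 counts in a library.

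Levels are given as CPM, normalised counts scaled to a common library size, and between genes as CPM per kilobase of exon. The carrier for ADP and ATP, Slc25a4, made up most of the family. Its mean over the 24 libraries was 587 CPM per kilobase (364 to 930 by library), 57.6% of the family's summed level per kilobase. The phosphate carrier Slc25a3 followed with 164 CPM per kilobase (103 to 201). Slc25a4 lay above Slc25a3 and Slc25a3 above the next gene in all 24 libraries, without overlap. The ADP/ATP carrier Slc25a5 (64.0 CPM per kilobase) and the oxoglutarate carrier Slc25a11 (60.0) came next, and their order was not separated, Slc25a5 being higher in 15 of 24 libraries. The carnitine carrier Slc25a20 (23.0 CPM per kilobase), Slc25a34 (14.8), the aspartate-glutamate carriers Slc25a13 (14.4) and Slc25a12 (11.4) and the glutathione carrier Slc25a39 (13.4) were the other members above 10 CPM per kilobase. Neighbours below Slc25a3 in this order overlapped in their ranges over libraries, although Slc25a11 lay above Slc25a20, and Slc25a20 above Slc25a34, within each of the 24 libraries. In all, 31 of 47 members reached a mean of 1 CPM per kilobase. The value of Slc25a5 is uncertain, because 49.4% of the 31-base words of its transcripts occur in other genes, mostly in pseudogenes such as Gm5560, Gm5529 and Slc25a5-ps.

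**Figure D1:**
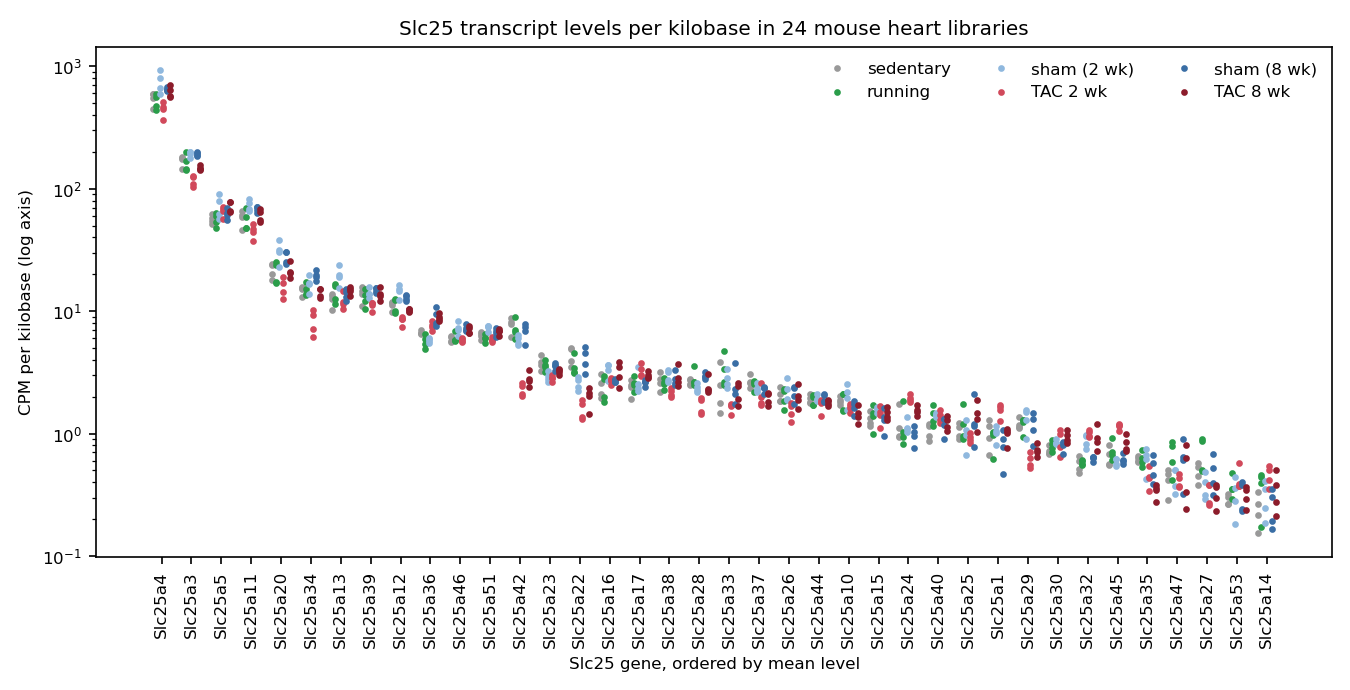
Transcript level of the tested Slc25 genes reported here in CPM per kilobase of exon (log axis), 1 point per library, coloured by group and ordered by the mean over 24 libraries. Slc25a4 and Slc25a3 stand above all others, from Slc25a5 and Slc25a11 onward neighbouring genes overlap, and the points of TAC at 2 weeks lie low for Slc25a4, Slc25a3, Slc25a34 and Slc25a42.

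The sequence upstream of 4 of the 7 carriers that fell at both times after TAC is shown: Slc25a42 (coenzyme A), which fell most, and Slc25a34, Slc25a3 (phosphate) and Slc25a20 (carnitine), the 3 whose window held a motif searched for a regulator of mitochondrial genes. Each line gives the 250 bases before the start of the gene, 5′ to 3′ on the gene's strand, from RefSeq on GRCm38.p6, and capitals mark a motif found by search on both strands. Slc25a42 lies at chr8:70212282-70212531 (minus strand), Slc25a34 at chr4:141623835-141624084 (minus strand), Slc25a3 at chr10:91123968-91124217 (minus strand) and Slc25a20 at chr9:108661886-108662135 (plus strand).
Slc25a42: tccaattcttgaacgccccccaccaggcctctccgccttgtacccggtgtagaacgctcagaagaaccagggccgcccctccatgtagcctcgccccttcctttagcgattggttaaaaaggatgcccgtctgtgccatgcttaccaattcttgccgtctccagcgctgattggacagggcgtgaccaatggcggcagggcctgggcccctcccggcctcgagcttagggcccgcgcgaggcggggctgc
Slc25a34: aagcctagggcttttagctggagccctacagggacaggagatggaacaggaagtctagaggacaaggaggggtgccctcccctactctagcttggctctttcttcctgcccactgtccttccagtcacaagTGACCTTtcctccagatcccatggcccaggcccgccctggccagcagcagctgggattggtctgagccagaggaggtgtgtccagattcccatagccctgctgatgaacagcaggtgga
Slc25a3: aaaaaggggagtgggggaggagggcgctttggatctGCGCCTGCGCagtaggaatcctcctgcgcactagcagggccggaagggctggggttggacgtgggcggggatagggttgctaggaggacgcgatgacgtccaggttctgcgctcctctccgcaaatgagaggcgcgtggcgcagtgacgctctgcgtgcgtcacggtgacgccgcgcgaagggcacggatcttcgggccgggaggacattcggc
Slc25a20: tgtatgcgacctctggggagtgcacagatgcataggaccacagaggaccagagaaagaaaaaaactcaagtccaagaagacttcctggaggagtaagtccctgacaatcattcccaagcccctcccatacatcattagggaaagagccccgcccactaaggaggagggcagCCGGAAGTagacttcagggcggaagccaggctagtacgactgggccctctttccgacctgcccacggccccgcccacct

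The capitals mark the palindromic element of nuclear respiratory factor 1 (NRF1) in Slc25a3, the letters searched for GABP, CCGGAAGT, in Slc25a20, and the core site of oestrogen-related receptors, AAGGTCA, read on the other strand in Slc25a34. These factors are known regulators of nuclear genes for mitochondrial proteins. The windows of Slc25a42, Slc25a12, Slc25a22 and Slc25a29, the others that fell at both times, held none of these 3 motifs. Of the 36 carriers with a promoter entry, 2 held the NRF1 element (4.23% of all 27025 genes with an entry), 1 held CCGGAAGT (3.23%) and 1 held AAGGTCA (4.70%), and none held the longer receptor element TCAAGGTCA, which contains the core site (0.422%). The GC box GGGCGG was found in 25 of 36 (35.4% of all genes), CCAAT in 18 of 36 (37.5%) and CACGTG in 7 of 36 (6.86%). A match is a run of letters and not a bound site.

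Running left the carriers without a called difference. With edgeR 0 of 39 carriers were called against sedentary hearts, where 0% of all 13824 genes were called, and DESeq2 called 0 as well. Unadjusted p was under 0.05 for 2 carriers. The pyrimidine nucleotide carrier Slc25a36 had 35.4, 35.1, 37.4 and 34.4 CPM in sedentary hearts and 31.4, 26.2, 28.8 and 34.2 CPM in running hearts. All 4 running values lay below all 4 sedentary values, as was so for 1.31% of all genes, and 0 carriers lay wholly above, as did 1.72% of all genes. Its log2 fold change was -0.25 (SE 0.10, edgeR adjusted p = 1). The glutathione carrier Slc25a40 had a log2 fold change of 0.41 (SE 0.17, edgeR adjusted p = 1), and its groups overlapped. The next in order of p were Slc25a47 (log2 fold change 0.60), Slc25a22 (-0.29) and Slc25a27 (0.46), each with an edgeR adjusted p of 1. Slc25a4 had 855, 1133, 1149 and 1068 CPM in sedentary hearts and 844, 1133, 1080 and 911 CPM in running hearts, which overlapped (log2 fold change -0.10, SE 0.12). The libraries numbered 1 of both groups stood apart for some members. Slc25a24 had 5.96 and 6.36 CPM in them and 2.80 to 3.84 CPM in the other 6 libraries, and Slc25a33 had 7.22 and 8.84 CPM against 2.76 to 6.35 CPM.

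At 2 weeks after TAC more carriers were called lower than higher. Of 39 carriers, 18 were called lower and 4 higher, 46.2% and 10.3% of those tested, where 16.1% of all 14224 genes were called lower, 17.1% higher and 33.2% in either direction (edgeR). The median log2 fold change of the carriers was -0.31 and that of all genes -0.00. The TAC range lay wholly below the sham range in 18 of 39 carriers and wholly above it in 4, where 15.6% and 16.8% of all genes did so. These were the same 22 carriers that were called, so the separation is not further support. The summed level of the family was 1607 ± 172 CPM (SD, n = 4; 1372 to 1783) in TAC hearts and 2539 ± 373 CPM (2130 to 2987) in shams.

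At 8 weeks 8 carriers were called lower and 2 higher, where 14.7% of all 13621 genes were called lower, 14.9% higher and 29.6% in either direction (edgeR), so that 20.5% of the carriers were called lower and 5.13% higher. Their median log2 fold change was -0.12 and that of all genes 0.00. The summed level was 2108 ± 166 CPM (1947 to 2328) in TAC hearts and 2317 ± 70.6 CPM (2235 to 2404) in shams, and these ranges overlapped.

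All directions after TAC are relative to the median gene. Library totals include the mitochondrially encoded counts. Their share was 50.7% to 58.4% 2 weeks after TAC and 59.8% to 64.5% in shams. At 8 weeks it was 52.7% to 57.6% after TAC and 61.3% to 67.0% in shams. With TMM, leaving these genes out changed no call of the 39 carriers at either time. The part of this share in the effect of scaling was not tested. When libraries were scaled to their totals instead of by TMM, all genes together had a median of 0.41 at 2 weeks and of 0.33 at 8 weeks on the log2 scale. The split of called carriers was then 8 lower and 10 higher at 2 weeks and 2 lower and 11 higher at 8 weeks. Slc25a42, Slc25a29, Slc25a4, Slc25a11, Slc25a20, Slc25a34, Slc25a12 and Slc25a3 remained called lower at 2 weeks, and Slc25a42 and Slc25a22 at 8 weeks. Called higher at 2 weeks were Slc25a1, Slc25a14, Slc25a17, Slc25a23, Slc25a24, Slc25a30, Slc25a32, Slc25a36, Slc25a45 and Slc25a53. Those called higher at 8 weeks were Slc25a1, Slc25a5, Slc25a13, Slc25a15, Slc25a16, Slc25a17, Slc25a24, Slc25a30, Slc25a32, Slc25a45 and Slc25a51.

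Marker lists of several cell types differed between the TAC groups and their shams. The summed level of 8 cardiomyocyte markers was 11964 to 14567 CPM 2 weeks after TAC and 21004 to 25011 CPM in shams, with 7 of 8 called lower. At 8 weeks it was 16061 to 17066 CPM and 21706 to 24801 CPM, with 4 of 8 called lower. The 8 fibroblast markers summed to 2129 to 3466 CPM against 490 to 722 CPM at 2 weeks (8 of 8 called higher) and to 1065 to 1623 CPM against 405 to 557 CPM at 8 weeks (7 of 8). The 7 macrophage markers summed to 167 to 209 CPM against 93.0 to 135 CPM and to 112 to 155 CPM against 67.7 to 91.6 CPM, with 6 of 7 called higher at each time. Of 7 endothelial and 7 smooth muscle and pericyte markers 4 each were called higher at 2 weeks, and 0 and 2 at 8 weeks, while the T and B cell markers summed to at most 1.06 CPM in these groups. With scaling to library totals 4 cardiomyocyte markers were lower at 2 weeks and 2 lower and 2 higher at 8 weeks, 7 and 6 of the endothelial and 7 and 5 of the smooth muscle and pericyte markers were higher, and 8 of 8 fibroblast and 6 of 7 macrophage markers were higher at each time.

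The 7 skeletal muscle markers summed to 847 to 1016 CPM against 557 to 806 CPM at 2 weeks and to 1511 to 1910 CPM against 557 to 599 CPM at 8 weeks. Of this list 3 and 2 genes could be tested, with Acta1, which heart muscle also expresses, called higher at both times (log2 fold change 3.09 and 4.73) and Ckm, also a gene of heart muscle, called lower at 2 weeks (-0.81). The summed levels of the 5 erythroid markers overlapped between TAC and sham at both times, with 0 called at 2 weeks and 2 called higher at 8 weeks, or 5 of 5 at 8 weeks with scaling to library totals. No cardiomyocyte, fibroblast or macrophage marker was at 0 in any of the groups. In whole hearts fewer cardiomyocytes and less RNA per cardiomyocyte cannot be told apart, and the part of these shifts in the carrier results was not tested.

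**Figure D2:**
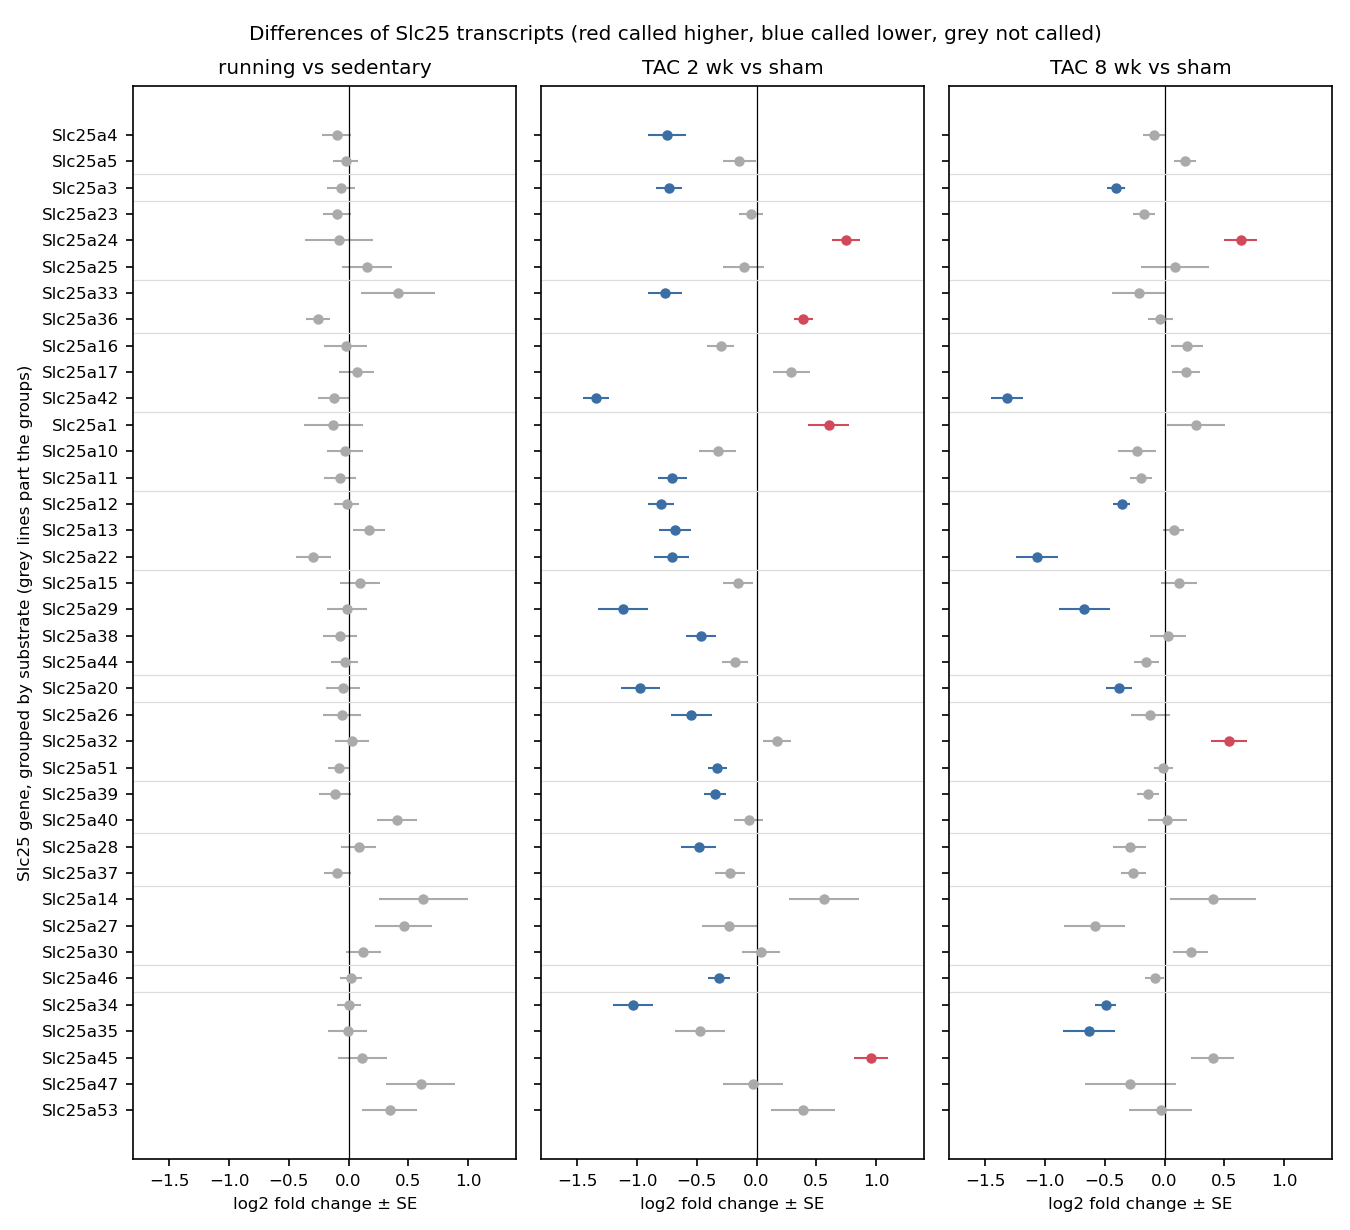
Log2 fold change ± SE (edgeR) of the tested Slc25 genes reported here in the 3 main comparisons, with substrate groups parted by grey lines and called genes in red (higher) or blue (lower). Called genes are absent from the running panel, the 2-week TAC panel holds more of them than the 10 of the 8-week panel, and Slc25a42 lies farthest to the left in both TAC panels.

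Among the carriers of ADP and ATP, the main heart form Slc25a4 fell at 2 weeks and Slc25a5 was not called. Slc25a4 had 1152, 1539, 1790 and 1286 CPM in the shams of the 2-week cohort and 701, 888, 977 and 869 CPM in TAC hearts. Every TAC value lay below every sham value, and the log2 fold change was -0.75 (SE 0.16, edgeR adjusted p = 0.00227). At 8 weeks Slc25a4 had 1243, 1248, 1303 and 1202 CPM in shams and 1224, 1081, 1357 and 1104 CPM after TAC, the groups overlapped, and the call was not made (log2 fold change -0.09 with SE 0.09, adjusted p = 0.487 by edgeR). Slc25a5, the ADP/ATP carrier of dividing and many other cells, had 70.1 to 88.3 CPM 2 weeks after TAC and 70.5 to 112 CPM in shams (log2 fold change -0.14 with SE 0.14, adjusted p = 0.469 by edgeR). In the 8-week cohort it had 79.3 to 96.8 CPM and 68.5 to 87.0 CPM (0.17, SE 0.09, adjusted p = 0.191). The groups overlapped at both times. With scaling to library totals Slc25a5 was called higher at 8 weeks (0.50, edgeR adjusted p = 0.00281).

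The phosphate carrier Slc25a3 fell at both times. It had 348, 389.9, 387 and 376 CPM in shams and 200.4, 240.4, 248 and 214 CPM 2 weeks after TAC, a log2 fold change of -0.74 (SE 0.11, edgeR adjusted p = 0.000215). Its values at 8 weeks were 367, 384, 391 and 360.1 CPM in shams and 287, 276.5, 303 and 283 CPM after TAC (-0.41, SE 0.08, edgeR adjusted p = 0.00134). No TAC library reached the lowest sham library of its cohort at either time. With scaling to library totals the 8-week call was lost (log2 fold change -0.08, adjusted p = 0.52). Over the 15 alternatives its adjusted p at 8 weeks ran from 1.72e-08 to 0.52.

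Of the 3 calcium-regulated ATP-Mg/phosphate carriers tested, which load or unload matrix adenine nucleotides, Slc25a24 rose at both times. It had 3.77, 3.70, 3.50 and 4.70 CPM in shams and 7.16, 6.20, 6.44 and 6.68 CPM 2 weeks after TAC (log2 fold change 0.75 with SE 0.12, adjusted p = 0.000355 by edgeR). In the later cohort it had 3.96, 3.25, 3.51 and 2.63 CPM in shams and 4.75, 5.38, 5.09 and 5.90 CPM after TAC (0.64, SE 0.14, adjusted p = 0.00395). The TAC values lay above the sham values without overlap at both times. Slc25a23 and Slc25a25 were not called at either time, with log2 fold changes of -0.05 and -0.11 at 2 weeks and -0.17 and 0.09 at 8 weeks.

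The pyrimidine nucleotide carriers, which bring in precursors for mitochondrial DNA and RNA, moved in opposite directions 2 weeks after TAC. Slc25a33 fell from 4.45, 5.33, 4.83 and 6.34 CPM in shams to 3.15, 3.31, 3.24 and 2.70 CPM after TAC (log2 fold change -0.76 with SE 0.14, adjusted p = 0.000997 by edgeR), although 13.5% of its 31-base words are shared with transcripts on the opposite strand, where Gm13068 overlaps its exons. Slc25a36 rose from 30.0, 31.3, 29.2 and 31.9 CPM to 40.9, 36.2, 39.5 and 44.4 CPM (0.39, SE 0.08, adjusted p = 0.0023). Of its 31-base words 7.78% are shared with other genes on the same strand, mostly with Gm13217. At 8 weeks neither carrier was called (-0.21 and -0.04, adjusted p = 0.512 and 0.828). Slc25a36 then had 57.1, 39.8, 50.2 and 42.8 CPM in the shams and 46.1, 47.1, 50.8 and 44.0 CPM after TAC, so that the shams of that cohort overlapped with both TAC groups. With scaling to library totals the 2-week call of Slc25a33 was lost (-0.35, edgeR adjusted p = 0.0772), while that of Slc25a36 held (0.81).

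The carrier with the largest decrease at both times was Slc25a42, which exchanges coenzyme A for adenine nucleotides and so supplies the matrix pool of coenzyme A. It had 20.4, 19.3, 17.5 and 16.8 CPM in the shams of the 2-week cohort and 6.48, 7.78, 8.24 and 6.77 CPM after TAC, a 2.53-fold decrease (log2 fold change -1.34 with SE 0.11, adjusted p = 2.47e-06 by edgeR). At 8 weeks it had 17.0, 23.5, 21.9 and 25.3 CPM in shams and 8.96, 10.7, 7.62 and 8.51 CPM after TAC, a 2.49-fold decrease (-1.32, SE 0.13, adjusted p = 1.75e-05). All TAC libraries lay well below all sham libraries, and both calls held in each of the 15 alternatives run. Sedentary hearts had 25.1, 26.2, 27.9 and 19.6 CPM and running hearts 19.1, 22.3, 28.7 and 21.5 CPM (log2 fold change -0.12, adjusted p = 1). The other carriers placed in this group, Slc25a16 and the peroxisomal Slc25a17, were not called at either time. They had -0.30 and 0.29 at 2 weeks (edgeR adjusted p = 0.056 and 0.173) and 0.19 and 0.18 at 8 weeks. With scaling to library totals Slc25a17 was called higher at both times (0.69 and 0.51, edgeR adjusted p = 0.00125 and 0.00428). Slc25a16 was called higher at 8 weeks with that scaling (0.52, adjusted p = 0.00524). At 2 weeks Slc25a16 was called lower with a replicate block (adjusted p = 0.0248) and without sham replicate 1 (0.0093).

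**Figure D3:**
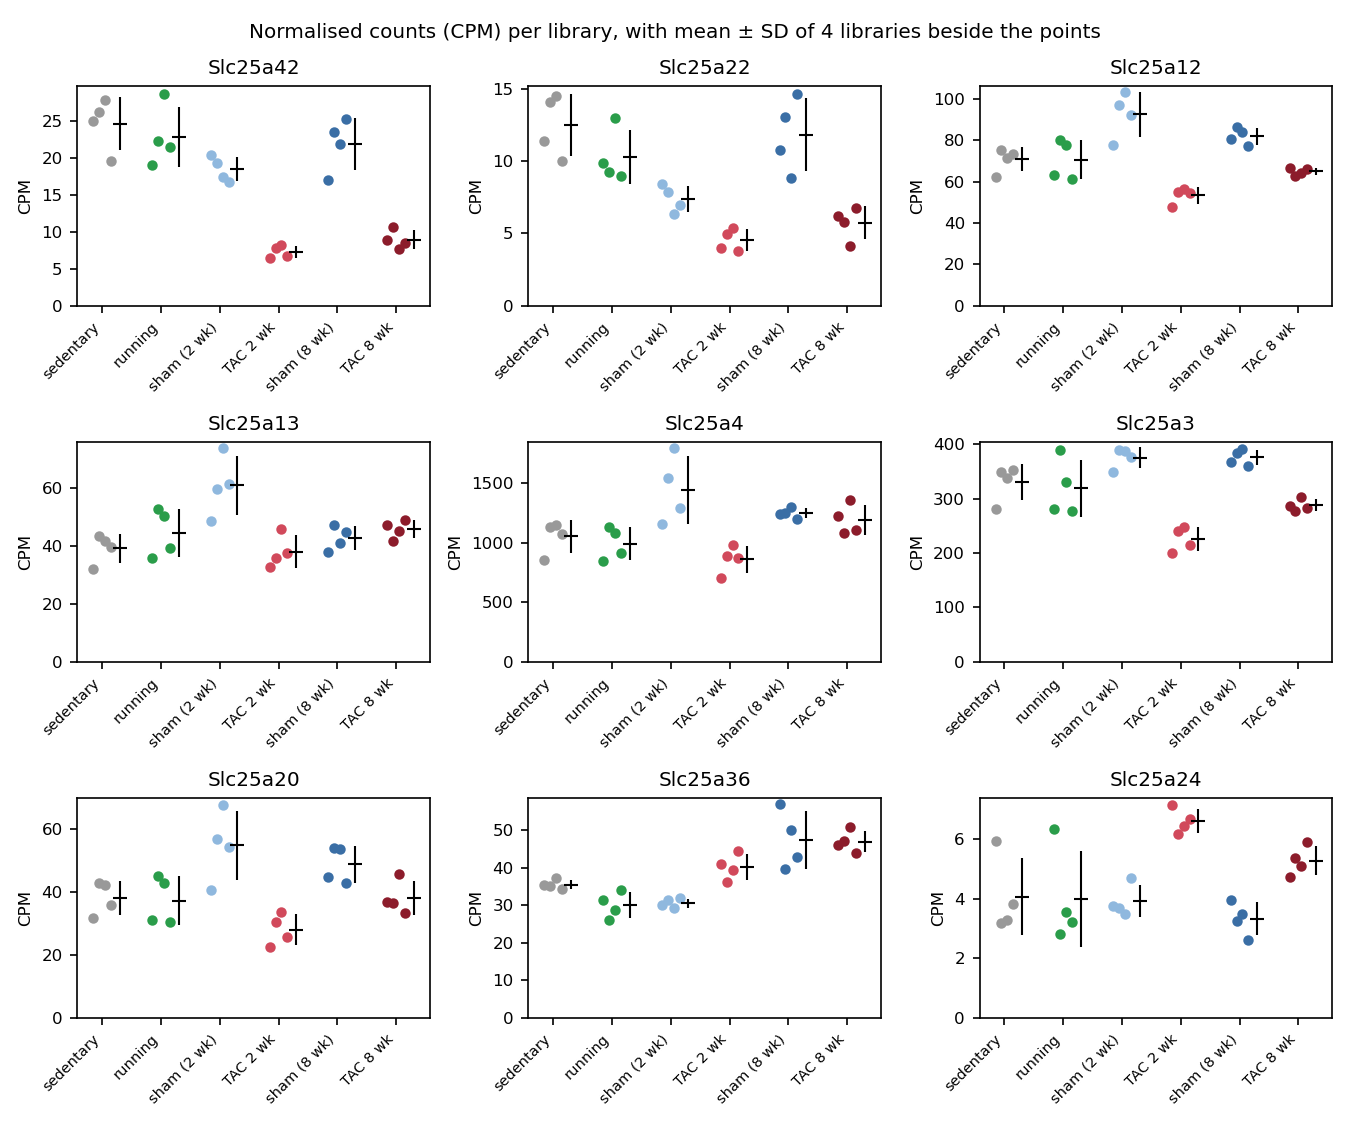
CPM in each of the 24 libraries for 9 carriers, 1 point per library, with mean ± SD of 4 libraries beside the points and axes that start at 0. Slc25a42 and Slc25a3 lie lower in both TAC groups than in their shams, Slc25a4 and Slc25a13 lie lower at 2 weeks and overlap at 8 weeks, and Slc25a24 lies higher at both times.

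Among the carriers of citrate, dicarboxylates and oxo acids, Slc25a11 fell and Slc25a1 rose at 2 weeks. Slc25a11, the oxoglutarate-malate exchanger of the malate-aspartate shuttle, had 111, 130.3, 141 and 117 CPM in shams and 63.6, 80.7, 87.5 and 75.9 CPM after TAC (log2 fold change -0.70 with SE 0.12, adjusted p = 0.000544 by edgeR). No TAC value reached a sham value. In the 8-week cohort it had 108 to 121 CPM and 90.8 to 116 CPM, which overlapped (-0.20, SE 0.09, adjusted p = 0.118). Slc25a1, the citrate exporter that feeds cytosolic lipid synthesis, had 1.67, 1.35, 1.92 and 1.74 CPM in shams and 2.09, 2.74, 2.87 and 2.58 CPM 2 weeks after TAC (0.60, SE 0.17, adjusted p = 0.0159). It was not called at 8 weeks (0.26, adjusted p = 0.445), nor was the dicarboxylate carrier Slc25a10 at either time (-0.32 and -0.23). With scaling to library totals Slc25a1 was called higher at 8 weeks (0.60, edgeR adjusted p = 0.044).

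All 3 tested carriers of aspartate and glutamate fell 2 weeks after TAC. Slc25a12, the aspartate-glutamate exchanger of heart and brain, had 77.7, 96.9, 103 and 92.1 CPM in shams and 47.5, 54.8, 56.4 and 54.6 CPM after TAC (log2 fold change -0.80 with SE 0.11, adjusted p = 9.76e-05 by edgeR). It fell at 8 weeks too, from 80.4, 86.2, 84.1 and 77.1 CPM to 66.6, 62.9, 64.2 and 65.9 CPM (-0.36, SE 0.07, adjusted p = 0.00236). There was no overlap at either time, and the 8-week call was lost with scaling to library totals (log2 fold change -0.03).

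Its paralog Slc25a13, known as the liver form, fell at 2 weeks from 48.6, 59.5, 73.6 and 61.3 CPM to 32.6, 35.8, 45.9 and 37.3 CPM (log2 fold change -0.69 with SE 0.13, adjusted p = 0.0016 by edgeR). In the later cohort it had 37.9, 47.3, 40.9 and 44.7 CPM in shams and 47.1, 41.8, 45.2 and 48.9 CPM after TAC, and the groups overlapped (0.07, SE 0.09, adjusted p = 0.56). The shams of the 2-week cohort were the highest of the control groups, since the shams of the 8-week cohort and the sedentary hearts had 32.0 to 47.3 CPM. With scaling to library totals Slc25a13 was not called at 2 weeks (-0.29, edgeR adjusted p = 0.0745). With that scaling it was called higher at 8 weeks (0.41, adjusted p = 0.00292).

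The glutamate carrier Slc25a22 fell at both times. It had 8.44, 7.86, 6.38 and 6.94 CPM in shams and 3.97, 5.00, 5.41 and 3.79 CPM 2 weeks after TAC (log2 fold change -0.71 with SE 0.14, adjusted p = 0.00193 by edgeR). Its 8-week values were 10.8, 13.1, 8.87 and 14.7 CPM in shams and 6.25, 5.81, 4.14 and 6.77 CPM after TAC, a 2.1-fold decrease (-1.07, SE 0.18, adjusted p = 0.000847). No TAC library reached its shams, and the 8-week call held in all 15 alternatives. The 2-week call was lost with scaling to library totals (log2 fold change -0.31, edgeR adjusted p = 0.0839).

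The carnitine-acylcarnitine carrier Slc25a20, which brings fatty acids into the matrix for oxidation, fell as well. It had 40.8, 56.8, 67.7 and 54.5 CPM in shams and 22.4, 30.4, 33.7 and 25.7 CPM 2 weeks after TAC, without overlap (log2 fold change -0.97 with SE 0.16, adjusted p = 0.000793 by edgeR). At 8 weeks it had 44.9, 54.0, 53.8 and 42.9 CPM in shams and 36.9, 36.5, 45.9 and 33.3 CPM after TAC, where TAC replicate 3 reached into the sham range (-0.38, SE 0.11, adjusted p = 0.0181). That call was lost in 7 of 15 alternatives (adjusted p from 0.00291 to 0.729), among them without TAC replicate 1 (0.0549) or 4 (0.063) and without sham replicate 2 (0.0532) or 3 (0.0592).

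Of the 4 tested carriers of other amino acids, 2 fell at 2 weeks and 1 at 8 weeks. Slc25a29, a carrier of basic amino acids, had 2.56, 3.09, 2.95 and 1.78 CPM in shams and 1.03, 1.39, 1.25 and 1.09 CPM 2 weeks after TAC (log2 fold change -1.12 with SE 0.21, adjusted p = 0.00102 by edgeR). In the 8-week cohort it had 2.90, 1.56, 2.10 and 2.57 CPM and 1.4, 1.27, 1.45 and 1.67 CPM, which overlapped (-0.67, SE 0.21, adjusted p = 0.0276), and the call was lost in 6 of 15 alternatives, with an adjusted p from 0.00856 to 0.209. It was lost without sham replicate 1 (0.0806) or 4 (0.0715) and without TAC replicate 1 (0.061), 2 (0.06) or 3 (0.053). The glycine carrier Slc25a38, which serves haem synthesis, fell at 2 weeks (-0.47, adjusted p = 0.0111) and was not called at 8 weeks (0.03, adjusted p = 0.908). Its 2-week call was lost with scaling to library totals (-0.06, edgeR adjusted p = 0.771). Slc25a15 and Slc25a44 were not called at either time.

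Vitamin and cofactor carriers had 3 of 4 tested members called lower at 2 weeks and 1 called higher at 8 weeks. The S-adenosylmethionine carrier Slc25a26 fell at 2 weeks (log2 fold change -0.54, edgeR adjusted p = 0.0231). The call was lost without sham replicate 2 (0.077) or TAC replicate 1 (0.0682) or 4 (0.0691). Scaling to library totals lost it too (-0.15, edgeR adjusted p = 0.479). The NAD carrier Slc25a51 fell from 30.1 to 33.7 CPM in shams to 24.7 to 27.2 CPM after TAC (-0.33, adjusted p = 0.00546), a direction that turned to 0.08 at 2 weeks with scaling to library totals. Slc25a32, the folate and flavin carrier, had 3.77, 3.77, 3.46 and 3.74 CPM in the shams of the 8-week cohort and 4.21, 5.04, 5.38 and 7.06 CPM after TAC (0.54, SE 0.15, adjusted p = 0.0159). In the shams of the 2-week cohort Slc25a32 had 5.59, 4.88, 5.76 and 4.45 CPM, which overlapped with those TAC values. Its increase was lost without TAC replicate 4 (0.39, adjusted p = 0.0612) and without sham replicate 3 (adjusted p = 0.0527), and over 15 alternatives the adjusted p was 0.000383 to 0.0612.

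Of the glutathione, iron and outer membrane carriers 1 each was called lower at 2 weeks, and of the uncoupling protein relatives 0. The glutathione carrier Slc25a39 fell at 2 weeks from 21.5 to 26.7 CPM in shams to 16.7 to 19.8 CPM (log2 fold change -0.35, edgeR adjusted p = 0.0119), a direction that turned to 0.06 with scaling to library totals, while its paralog Slc25a40 was not called (-0.07). Mitoferrin 2, Slc25a28, fell at 2 weeks (-0.48, adjusted p = 0.0224), and mitoferrin 1, Slc25a37, was not called (-0.22, adjusted p = 0.196). The uncoupling protein relatives Slc25a14, Slc25a27 and Slc25a30 were not called in any main comparison. Slc25a46, an outer membrane protein of mitochondrial shape, fell at 2 weeks (-0.31, adjusted p = 0.0189), a direction that turned to 0.10 with scaling to library totals. The call of Slc25a28 was lost with scaling to library totals (-0.08, edgeR adjusted p = 0.697). It was also lost without sham replicate 1 (adjusted p = 0.0585) or TAC replicate 1 (0.0677) or 4 (0.0765). The call of Slc25a46 was lost without sham replicate 2 (0.0655) or TAC replicate 1 (0.055). None of these members was called at 8 weeks.

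Of the 5 tested members whose substrate is unsettled, 3 were called after TAC. Slc25a34 had 37.1, 44.6, 52.4 and 45.3 CPM in shams and 16.4, 27.3, 24.8 and 19.2 CPM 2 weeks after TAC, a 2.05-fold decrease (log2 fold change -1.03 with SE 0.16, adjusted p = 0.00057 by edgeR). In the later cohort it had 46.7, 51.0, 58.1 and 52.9 CPM and 40.6, 34.4, 40.2 and 35.4 CPM (-0.49, SE 0.09, adjusted p = 0.00118). Neither time showed overlap, and the 8-week call was lost with scaling to library totals (log2 fold change -0.16). Slc25a45 rose at 2 weeks from 1.53, 1.68, 1.48 and 1.67 CPM to 3.15, 2.86, 3.24 and 3.10 CPM (0.95, SE 0.14, adjusted p = 0.00022). At 8 weeks its TAC values again lay above its sham values, as for 15.7% of all genes, but the test missed the threshold (0.40, SE 0.18, adjusted p = 0.104).

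Slc25a35 was called lower at 8 weeks (-0.63, adjusted p = 0.0417) and not at 2 weeks (-0.47, adjusted p = 0.0984). Its 8-week call was lost in 11 of 15 alternatives (adjusted p from 0.0184 to 0.255), and leaving out sham replicate 3 (0.0978) or 4 (0.126) or TAC replicate 1 (0.0707), 2 (0.0605), 3 (0.0512) or 4 (0.117) each lost it. Of its 31-base words 27.5% are shared with transcripts on the opposite strand, where Rangrf overlaps its exons. Slc25a47 and Slc25a53 were not called.

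The carriers called at both times went the same way. In all, 7 were lower at both times (Slc25a3, Slc25a12, Slc25a20, Slc25a22, Slc25a29, Slc25a34 and Slc25a42), 1 was higher at both (Slc25a24), and 0 were called in opposite directions. Of all 13542 genes tested at both times, 8.53% were called lower, 8.79% higher and 0.111% in opposite directions at both, and of the 39 carriers 17.9% were called lower and 2.56% higher. The 7 shared members are 38.9% of the 18 lower at 2 weeks and 87.5% of the 8 lower at 8 weeks. Among all genes 1155 were called lower at both times, where 2289 were called lower at 2 weeks and 2000 at 8 weeks. The log2 fold changes of 30 of 39 carriers had the same sign at both times (76.9%, against 71.8% of 13542 genes). Across the 39 carriers, which are not independent replicates, Pearson's r between the times was 0.76 and Spearman's rho 0.74, and across all genes 0.73 and 0.64. The 2 comparisons share no library.

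**Figure D4:**
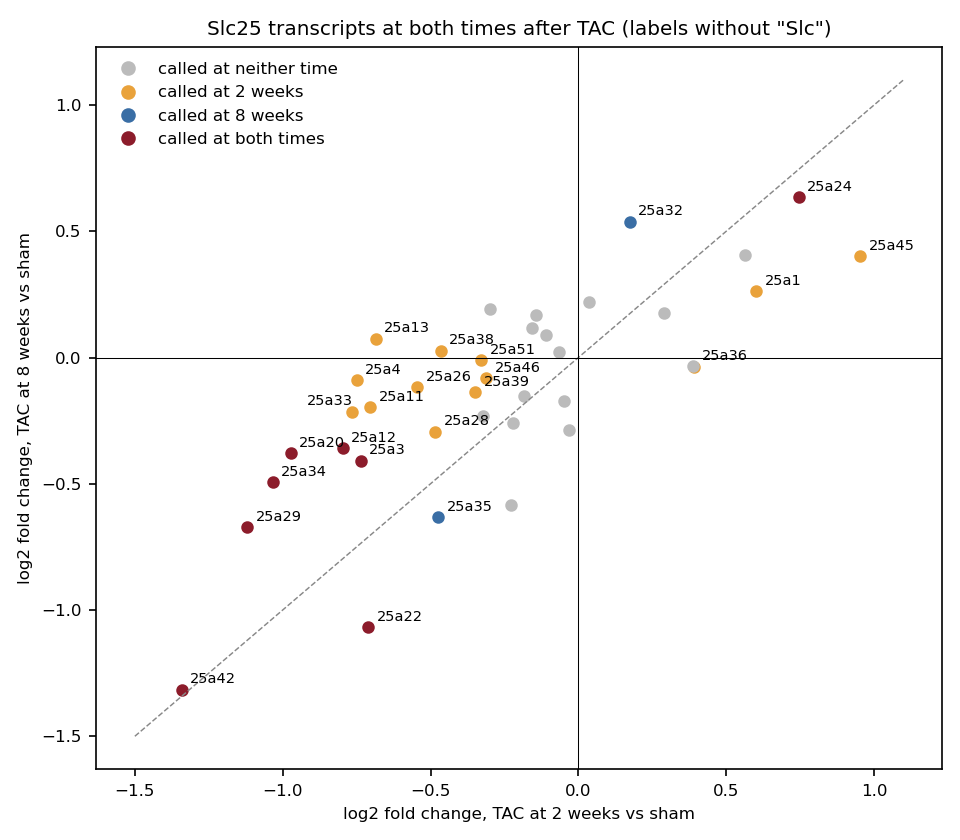
Log2 fold change of the tested Slc25 genes reported here against their shams at 2 weeks (x axis) and at 8 weeks (y axis) after TAC, coloured by the times at which it was called, with the dashed line marking equal values. Most points in the lower left lie above the line, nearer to 0 at 8 weeks, whereas Slc25a42 lies on it and Slc25a22 below it.

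Tested as a difference between the effects, only Slc25a13 was called between 8 and 2 weeks after TAC with edgeR. Its 8-week effect exceeded its 2-week effect by 0.77 on the log2 scale (SE 0.17, edgeR adjusted p = 0.0347), where 0.933% of all 14463 genes were called higher and 1.36% in either direction. It was lost in 12 of 22 alternatives, with an adjusted p from 0.0029 to 0.0809. In 11 of these a library was left out: at 2 weeks sham replicate 2 (0.077) or 3 (0.0692) or TAC replicate 1 (0.0809), 2 (0.0594) or 4 (0.0674), and at 8 weeks sham replicate 1 (0.0645), 3 (0.0679) or 4 (0.0571) or TAC replicate 1 (0.0701), 3 (0.0615) or 4 (0.0638). For Slc25a4 the difference was 0.67 (adjusted p = 0.0682), for Slc25a12 0.44 (0.0724) and for Slc25a11 0.51 (0.0869), and DESeq2 called these 3 among 6 carriers in all. For Slc25a42 the difference was 0.03 (SE 0.18, adjusted p = 0.941).

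The control groups of the cohorts differed by themselves for 3 carriers, where 3.64% of all 13656 genes were called (2.2% higher, 1.44% lower). In the shams of the 8-week cohort Slc25a36 (log2 difference 0.65, edgeR adjusted p = 0.0107) and Slc25a22 (0.70, adjusted p = 0.029) were higher and Slc25a13 (-0.49, adjusted p = 0.0375) was lower than in the shams of the 2-week cohort. The later shams lay wholly above the earlier ones in 3 of 39 carriers and wholly below in 3, where 6.44% and 6.39% of all genes did so. These were the 3 called carriers and Slc25a28, Slc25a32 and Slc25a40, which were not called. The call of Slc25a36 held in all 13 alternatives. That of Slc25a22 was lost without replicate 2 (0.0755), 3 (0.082) or 4 (0.0737) of the earlier shams or 1 (0.0512), 2 (0.0628) or 4 (0.0687) of the later ones, and that of Slc25a13 without 2 (0.0984), 3 (0.0763) or 4 (0.0749) of the earlier or 1 (0.0975), 3 (0.122) or 4 (0.0673) of the later shams. These shifts enter each difference between the 2-week and 8-week effects, and time and cohort cannot be told apart.

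The TAC effect at 2 weeks differed from the running effect for 12 carriers. Of these, 10 were lower (9.56% of all 14729 genes) and 2 higher (9.5%) in the TAC effect. The largest differences were those of Slc25a42 (-1.22 on the log2 scale, SE 0.18, edgeR adjusted p = 0.000106), Slc25a33 (-1.18, SE 0.35, adjusted p = 0.0236), Slc25a29 (-1.11, SE 0.26, adjusted p = 0.00517) and Slc25a34 (-1.04, SE 0.20, adjusted p = 0.0011). Slc25a20 (-0.93), Slc25a13 (-0.86), Slc25a12 (-0.78), Slc25a3 (-0.67), Slc25a4 (-0.65) and Slc25a11 (-0.63) followed, and Slc25a45 (0.84) and Slc25a36 (0.64) differed upward. For the 8-week effect, Slc25a42 (-1.18, SE 0.20, adjusted p = 0.000917) and Slc25a34 (-0.49, SE 0.14, adjusted p = 0.0278) differed from running, where 5.35% of all 14252 genes were called lower and 5.74% higher. For Slc25a42 and Slc25a36 the 2-week calls, and for Slc25a42 the 8-week call, held in all 22 alternatives. The calls of Slc25a3, Slc25a12, Slc25a13, Slc25a20, Slc25a29 and Slc25a34 at 2 weeks were lost only with scaling to library totals (adjusted p from 0.065 to 0.553).

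The other calls against running changed with scaling and when single libraries were left out. With scaling to library totals the difference at 2 weeks was -0.18 for Slc25a4 (adjusted p = 0.612), -0.16 for Slc25a11 (0.645) and -0.71 for Slc25a33 (0.0648), and that of Slc25a34 at 8 weeks was -0.08 (0.801). Slc25a33 was also lost without the filter on low counts (0.0643), and Slc25a34 at 8 weeks with all 24 libraries in 1 fit (0.0747). Those of Slc25a4 (adjusted p = 0.061), Slc25a11 (0.0504) and Slc25a45 (0.0513) at 2 weeks and of Slc25a34 at 8 weeks (0.0522) were lost without sedentary replicate 1. Slc25a4 was also lost without running replicate 2 (0.0616) or 3 (0.0604), sham replicate 2 (0.058) or 3 (0.066) or TAC replicate 1 (0.066) or 4 (0.0542). Slc25a11 was lost without running replicate 2 (0.0563) or TAC replicate 1 (0.0599), and Slc25a33 without TAC replicate 4 (0.0523). The 8-week difference of Slc25a34 was lost without running replicate 3 (0.0711), sham replicate 3 (0.0663) or 4 (0.0572) or TAC replicate 4 (0.0609). The running cohort had its own sedentary controls, so setting and cohort cannot be told apart here either.

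Related carriers were also compared as a ratio of counts within each library, which does not depend on scaling. In shams of the 2-week cohort Slc25a4 had 16.1 counts per count of Slc25a5, and 10.5 after TAC (mean log2 ratio 4.01 ± 0.04 and 3.40 ± 0.13, SD, n = 4, without overlap; exact two-sided permutation p = 0.0286). Slc25a33 had 0.0773 counts per count of Slc25a36 2 weeks after TAC and 0.17 in shams, and Slc25a23 had 1.44 and 2.50 counts per count of Slc25a24 at 2 weeks and 2.04 and 3.59 at 8 weeks, in each case without overlap (exact permutation p = 0.0286 each). The log2 ratio of Slc25a12 to Slc25a13 was lower at 8 weeks (0.51 ± 0.07 after TAC and 0.94 ± 0.14 in shams, exact permutation p = 0.0286), and at 2 weeks the groups overlapped (0.50 and 0.61, exact permutation p = 0.229). With 4 against 4 libraries 0.0286 is the smallest p the test can give, and after adjustment over 18 tests (6 pairs in 3 comparisons) none passed the threshold (smallest adjusted p 0.103). The Slc25a5 counts in the first ratio carry the uncertainty named above. The Slc25a33 to Slc25a36 log2 ratios 2 weeks after TAC (-4.03 to -3.44) lay within the range of the shams of the 8-week cohort (-4.12 to -2.48). In running hearts all 6 ratios overlapped with those of sedentary hearts.

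**Figure D5:**
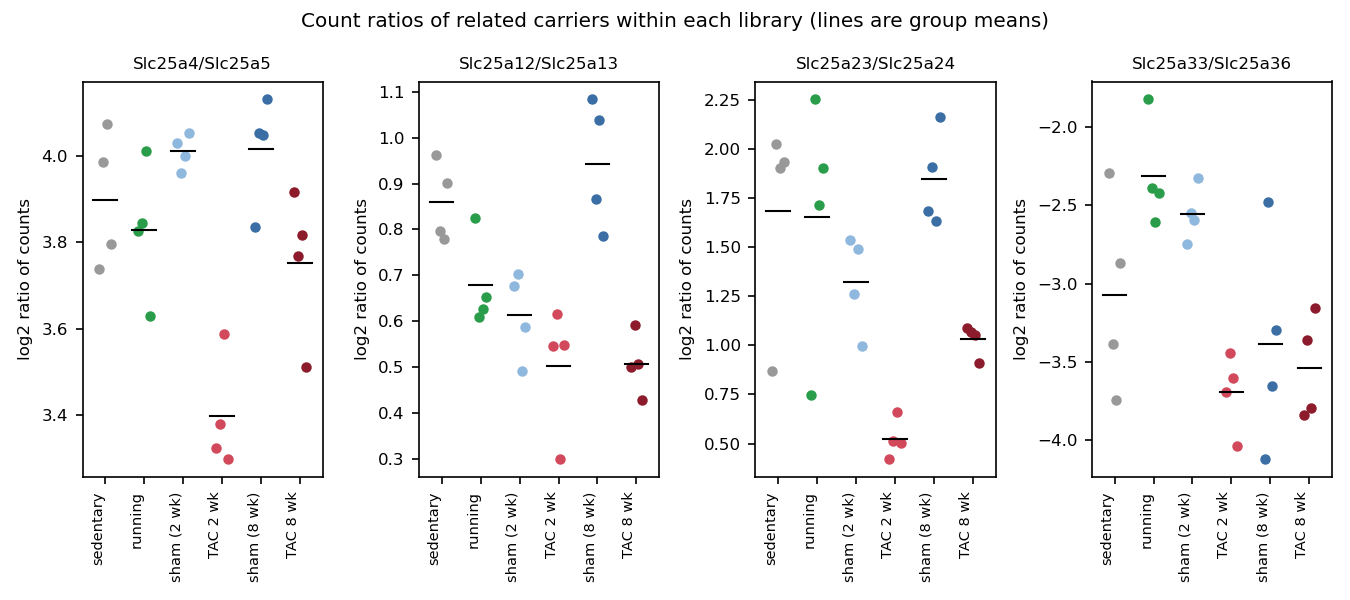
Log2 ratio of the counts of 2 related carriers within each library, for 4 pairs, 1 point per library, with a line at the mean of each group. The Slc25a4 to Slc25a5 and Slc25a33 to Slc25a36 ratios lie below those of their own shams at 2 weeks after TAC. The Slc25a23 to Slc25a24 ratio does so at both times, and the Slc25a12 to Slc25a13 ratio parts from its shams at 8 weeks. The Slc25a33 to Slc25a36 ratios at 2 weeks after TAC overlap with those of the shams of the 8-week cohort.

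Genes that work with the carriers were read from lists of enzymes, ATP synthase, import and other transporters. Of all genes, 16.1% were called lower and 17.1% higher at 2 weeks, and 14.7% and 14.9% at 8 weeks (edgeR). Of 15 enzymes of the shuttles the carriers serve, 12 fell and 1 rose at 2 weeks, and 9 fell and 1 rose at 8 weeks (edgeR). Among them were carnitine acetyltransferase Crat (log2 fold change -1.05 and -0.66) and citrate synthase Cs (-0.87 and -0.53), with carnitine palmitoyltransferase Cpt2 at -0.998 at 2 weeks and malate dehydrogenase Mdh2 at -0.60 at 8 weeks. The enzymes that rose were the citrate lyase Acly at 2 weeks (0.24) and the glycerol phosphate dehydrogenase Gpd1 at 8 weeks (0.34). With scaling to library totals 7 enzymes were called lower and 1 higher at 2 weeks and 2 lower and 4 higher at 8 weeks, with Crat lower at both times. Of 17 nuclear ATP synthase genes, 10 fell at 2 weeks and 5 at 8 weeks, Atp5b with -0.67 and -0.38 and Atp5j with -0.59 and -0.52. The inhibitor gene Atpif1 rose at 8 weeks (0.46). With scaling to library totals only 1 ATP synthase gene was called lower at 2 weeks and 0 at 8 weeks, when 7 were called higher.

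Genes of carrier import were called in both directions. Of 17 tested, 3 fell and 0 rose at 2 weeks, Timm29 with -0.49, Tomm40 with -0.28 and Tomm40l with -0.36, where scaling to library totals gave -0.08, 0.14 and 0.04 and called 6 of the list higher. These 3 of 17 are near the share of all genes called lower, 16.1%. At 8 weeks 5 rose and 0 fell, where 14.9% of all genes were called higher and 14.7% lower (edgeR). With scaling to library totals 11 rose. Among the genes that rose were the receptors Tomm22 (0.51) and Tomm20 (0.34) and the small subunit Tomm5 (0.46). The difference between the times was called for 0 of these 17 genes. Of 24 other mitochondrial transporters and channels, 12 fell and 2 rose at 2 weeks and 5 fell and 2 rose at 8 weeks. Among all genes 16.1% were called lower and 17.1% higher at 2 weeks, and 14.7% and 14.9% at 8 weeks. The outer membrane channel Vdac1 had -0.69 at 2 weeks. The cation exchanger gene Letm1 had -0.66 and -0.56, and the serine transporter relative Sfxn3 had 0.75 and 0.49. With scaling to library totals 0 of these 24 were called lower and 6 higher at 2 weeks, and 1 lower and 8 higher at 8 weeks, with Vdac1 and Letm1 no longer called and Sfxn3 higher at both times. Family members that carry other symbols included the uncoupling protein Ucp3, which fell with -1.90, and Mtch1, which rose with 0.41, both at 2 weeks, and 0 of 4 were called at 8 weeks, when Ucp3 had -1.4. With scaling to library totals 2 of these 4 were called higher and 1 lower at 2 weeks, and 2 higher and 0 lower at 8 weeks. In running hearts 0 genes of these lists were called, as for 0% of all genes.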

How the data were processed

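Ribosomal RNA-depleted RNA of mouse hearts was sequenced. The deposited values are estimated counts per gene, 1 column per library, as the authors deposited them, and the submitters' processing notes name Salmon, FastQC and the build mm9 (their roles, versions, annotation and strand setting: not given in the sources used here). Counts were deposited as whole numbers, so rounding changed none, and 1 row that names no gene (0% of counts) was left out. Symbols came from a table of gene names (42462 of 43432 identifiers matched). Each comparison was fitted on its own libraries with edgeR 4.0.16 in R 4.3.3 (filterByExpr, TMM, robust quasi-likelihood F test, Benjamini-Hochberg adjustment over all genes tested, called under 0.05). The SE is the log2 fold change divided by the square root of F. CPM used TMM factors over all 24 libraries, and CPM per kilobase the merged exon length of another annotation (GRCm38), so lengths are approximate.

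The members and gene lists were chosen with earlier results of these data known. Single genes named are those called, in order of p, up to 15 per direction and comparison, the 5 of smallest p where fewer than 5 were called, 9 carriers of main substrates and up to 3 per direction of each context list; other called carriers are named to account for members. For 1 carrier single values are not reported here, and it stays in the counts. Nothing in the labels says that libraries came from separate animals, so p-values measure the spread between these libraries, which may be technical. Ratios of related carriers were tested by exact two-sided permutation (scipy 1.17.1, pseudocount 0.5 counts). Fits were tested on simulated data. Alternatives were DESeq2 1.42.0, library totals, no filter, mitochondrially encoded genes left out, all libraries in 1 fit, a replicate block, a term for library number and leaving out each library.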

Additional observations from a re-analysis of the deposited data

Results flagged for a closer look

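A single library stood apart from the other 3 of its group in 2 of 150 sets of 4 values, where chance marks about 1 in 20. Slc25a1, the citrate carrier, had 1.03 CPM in running replicate 1 and 1.61 to 1.72 CPM in the other running hearts. Slc25a32, the folate and flavin carrier, had 3.46 CPM in replicate 3 of the shams of the 8-week cohort and 3.74 to 3.77 CPM in the other 3.

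Some effects differed between settings by a test of the difference itself (edgeR, values on the log2 scale). Between 8 and 2 weeks after TAC the effect on Slc25a13 differed by 0.77. The 2-week TAC effect differed from the running effect by -1.22 for Slc25a42, -1.04 for Slc25a34, 0.64 for Slc25a36, -0.78 for Slc25a12, -1.11 for Slc25a29, -0.86 for Slc25a13, -0.67 for Slc25a3, -0.93 for Slc25a20, 0.84 for Slc25a45, -1.18 for Slc25a33, -0.63 for Slc25a11 and -0.65 for Slc25a4. The 8-week TAC effect differed from the running effect by -1.18 for Slc25a42 and -0.49 for Slc25a34.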

How the results depend on the processing

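Of the 22 carriers called at 2 weeks after TAC, 12 kept their call in all 15 alternatives run, and 18 in the 14 other than library totals; of the 10 called at 8 weeks, 3 and 6 did. With library totals, 8 were lower and 10 higher at 2 weeks and 2 lower and 11 higher at 8 weeks, the difference between the times had 0 calls, TAC less running had 1 lower and 6 higher at 2 weeks and 1 lower and 3 higher at 8 weeks, and Slc25a51 (0.083), Slc25a23 (0.37), Slc25a46 (0.10) and Slc25a39 (0.056) turned upward at 2 weeks and Slc25a51 (0.32) at 8 weeks. The difference between the times had 6 calls higher with DESeq2 and 2 without the filter on low counts. With all 24 libraries in 1 fit, 2 carriers were lower in the later shams. The cause was not tested for any of these. Leaving out each library in turn gave 15 to 20 lower and 4 to 5 higher at 2 weeks, 5 to 8 lower and 1 to 2 higher at 8 weeks, 0 to 5 higher between the times, 8 to 11 lower and 2 to 3 higher (2 weeks) and 1 to 4 lower and 0 to 1 higher (8 weeks) against running, 0 to 2 lower and 1 to 3 higher between shams, and 0 for running. Whether equal replicate numbers pair the libraries could not be decided. Same-numbered deviations correlated between -0.23 and 0.39, and some libraries but not all correlated best with their own number. With a replicate block there were 19 lower and 4 higher at 2 weeks, 7 lower and 2 higher at 8 weeks, 0 for running, 6 higher between the times, and against running 11 lower and 4 higher (2 weeks) and 5 lower and 1 higher (8 weeks). Depth limits the carriers with few counts, which could not be tested.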
